A study of Mus musculus with 2 samples.

Results

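Genes of the phagocyte NADPH oxidase and of antioxidant proteins were examined in mouse splenocytes. The genes were 5 oxidase subunits (Cybb, Cyba, Ncf1, Ncf4 and Rac2) and 4 antioxidant genes (Sod2, Cat, Gpx1 and Txn1). They were chosen by name, and every probe set was taken whose only gene symbol in the platform annotation was one of these names. This gave 14 probe sets for 9 genes, of 20380 probe sets for 12393 genes on the array. Male DBA/1 mice aged 6 to 8 weeks received either 300 μg of GPI-GST, human glucose-6-phosphate isomerase (GPI) fused to glutathione S-transferase (GST), or 100 μg of GST alone, both in complete Freund's adjuvant. The adjuvant is thus shared by GPI-immunized and control-immunized mice. The spleens of 3 mice per group were taken on day 10, and each group is represented by 1 Affymetrix mouse 430A 2.0 GeneChip. With 1 array per group no test was possible, and each ratio describes these 2 arrays only.

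The oxidase is a membrane enzyme of phagocytes that passes electrons from NADPH to oxygen and so makes superoxide, which is used to kill microbes. Cybb encodes its catalytic subunit NOX2 and Cyba the partner that holds NOX2 in the membrane, while the products of Ncf1 and Ncf4 and the GTPase Rac2 wait in the cytosol until the cell is activated. Sod2 encodes the mitochondrial superoxide dismutase, which turns superoxide into hydrogen peroxide. Catalase (Cat) and glutathione peroxidase (Gpx1) break hydrogen peroxide down, and thioredoxin (Txn1) passes electrons to peroxiredoxins and other proteins with oxidized thiols. In the spleen, neutrophils and macrophages are rich in the oxidase, B cells hold it as well, and red cell precursors are rich in catalase and Gpx1.

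All 5 oxidase subunits had a higher signal in GPI-immunized than in control splenocytes, by a factor of 1.11 to 1.76. The antioxidant genes were divided, with 2 above and 2 below a ratio of 1. The median ratio was 1.20 for the oxidase subunits (log2 ratio 0.26, SD 0.27 over the 5 genes) and 1.02 for the antioxidant genes (log2 ratio 0.03, SD 0.26 over the 4 genes), a difference of 0.24 on the log2 scale. The 2 sets of ratios overlapped, since Txn1 had a higher ratio than 3 of the subunits. For single genes, the ratio varied between probe sets with an SD of 0.28 on the log2 scale (a factor of 1.21, from 2538 genes with several probe sets). That spread holds no variation between mice or hybridizations.

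The ratios were read against all 6961 genes of which at least 1 signal reached 50.2, the 50th percentile of all signals on both arrays. All 9 genes passed this limit. The median ratio of the 6961 genes was 1.04 (log2 ratio 0.06), and 57.5% of them had a ratio above 1, beside which stand the 5 of 5 oxidase subunits and the 2 of 4 antioxidant genes. A ratio of at least 2 was found for 0 of the 9 genes and for 2.23% of all genes, and a ratio of at most 0.5 for 0 of the 9 and for 0.445% of all genes. At a 1.5-fold threshold, 1 of the 9 genes, Cybb, was higher and 0 were lower, against 7.05% and 3.23% of all genes. Of the 9 genes, Cybb, Ncf1 and Cat were further from the median ratio of all genes than the SD between probe sets. Txn1 lay at that SD, with a distance of 0.28 on the log2 scale.

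**Figure D1:**
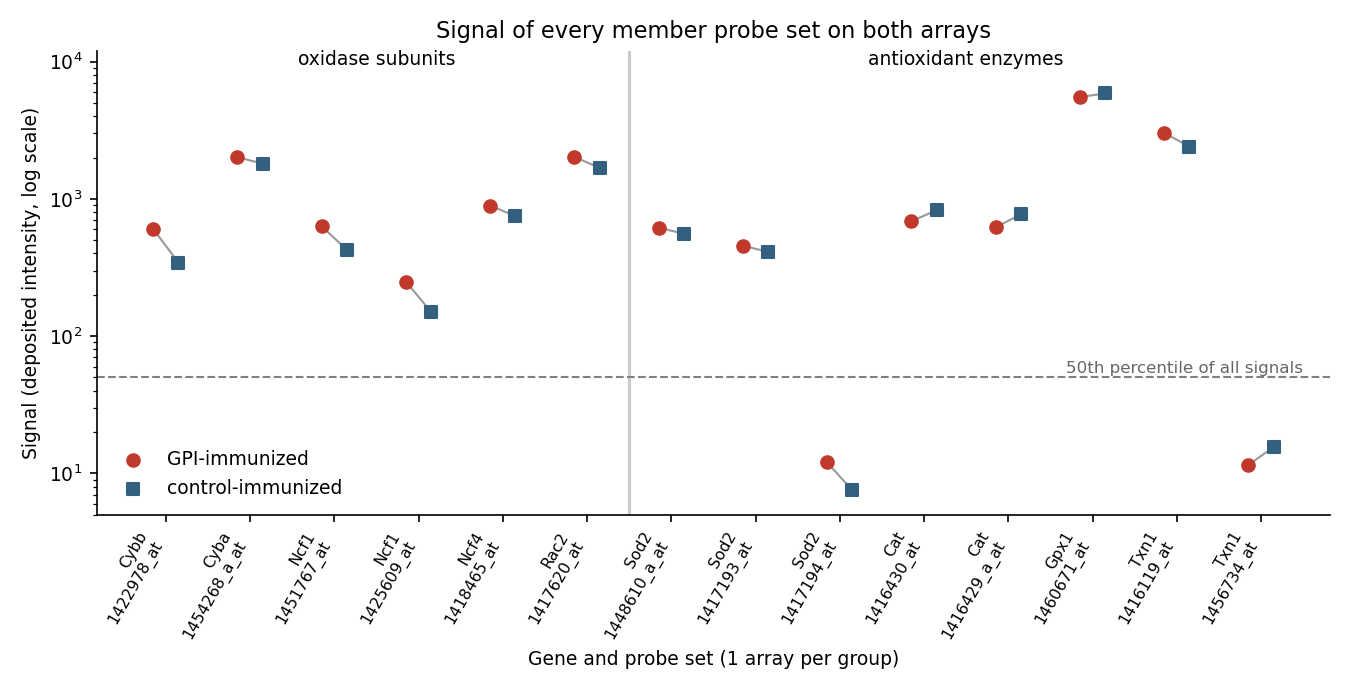
Signal of each of the 14 probe sets (vertical axis, deposited intensity on a log scale) for GPI-immunized splenocytes (circles, left of each pair) and control splenocytes (squares, right), with 1 array per group and no error bars. All 6 probe sets of the oxidase subunits are higher on the GPI-immunized array, both Cat probe sets are lower, and a probe set each of Sod2 and Txn1 lies under the 50th percentile of all signals (dashed line).

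The membrane subunits differed in ratio. Cybb (Entrez Gene 13058) had a signal of 602.9 in GPI-immunized splenocytes and 342.9 in control splenocytes, a ratio of 1.76 and a log2 ratio of 0.81. It was the highest ratio among the 9 genes, and 3.52% of the 6961 genes had a ratio at least as high. Its partner Cyba (Entrez Gene 13057) had signals of 2009.2 in GPI-immunized and 1805.7 in control splenocytes, a ratio of 1.11. This is the lowest ratio of the 5 subunits, and 37.0% of all genes had a ratio at least as high. The subunits that form one membrane complex thus stood at opposite ends of the oxidase set, and the single probe set of each gives no repeat measurement.

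Of the cytosolic subunits, Ncf1 (Entrez Gene 17969), the organizer that brings the cytosolic complex to the membrane, was read by a pair of probe sets. The brighter had signals of 630.7 in GPI-immunized splenocytes and 424.5 in control splenocytes, a ratio of 1.49, just under the 1.5-fold threshold. The dimmer had 249.1 and 149.5 on the same arrays, a ratio of 1.67. Both probe sets were thus higher by more than the factor of 1.21 between probe sets, and 7.43% of all genes had a ratio at least as high as the brighter one.

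Ncf4 (Entrez Gene 17972), which binds a phosphoinositide of the phagosome membrane, had signals of 893.4 in GPI-immunized and 748.1 in control splenocytes, a ratio of 1.19. Rac2 (Entrez Gene 19354), the GTPase of blood cells that switches the assembled oxidase on, had 2020.0 and 1681.3 on the same arrays, a ratio of 1.20. Ratios at least as high were found for 26.2% of all genes in the case of Ncf4 and for 25.2% in that of Rac2, and neither ratio exceeded the spread between probe sets. Ncf4 and Rac2 both lie on chromosome 15 of the mouse, with 10 protein-coding genes between them in the RefSeq annotation of assembly GRCm38.p6, whereas the other members lie on a chromosome each.

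The antioxidant genes had ratios on both sides of 1. Sod2 (Entrez Gene 20656), a gene that inflammatory cytokines can induce, had signals of 616.5 in GPI-immunized splenocytes and 556.5 in control splenocytes with its brightest probe set, a ratio of 1.11. A second probe set gave 455.7 and 410.6 on these arrays, again a ratio of 1.11, so the pair gave nearly the same value. The third was dim, at 12.0 in GPI-immunized and 7.5 in control splenocytes, and stayed under 14.1. This is the highest signal of bacterial control probe sets without a target in mouse RNA, which reached 7.2 with the GPI-immunized and 14.1 with the control RNA. No ratio is drawn from it.

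Cat (Entrez Gene 12359) had the lowest ratio of the 9 genes, and both of its probe sets were lower in GPI-immunized splenocytes. Its signals were 688.6 in GPI-immunized and 825.5 in control splenocytes with the brighter probe set, a ratio of 0.834, and 620.9 and 772.6 with the other, a ratio of 0.804. Of all genes, 16.2% had a ratio at most as high as the brighter one. Gpx1 (Entrez Gene 14775) was read by a single probe set, with 5507.1 in GPI-immunized splenocytes and 5876.3 in control splenocytes, a ratio of 0.937, which is within the spread between probe sets.

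Txn1 (Entrez Gene 22166) had the highest ratio of the antioxidant genes. Its bright probe set had signals of 3024.3 in GPI-immunized and 2398.7 in control splenocytes, a ratio of 1.26 (log2 ratio 0.33), and 18.9% of all genes had a ratio at least as high. A dim second probe set had 11.5 and 15.6 on the same arrays. These signals are near the highest bacterial control and far under the 50th percentile, so the opposite order of the pair of signals says nothing about Txn1. Of the 4 antioxidant genes, Txn1 and Cat were furthest apart, at 1.26 and 0.834.

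The arrays did not share a scale, and the scaling moved these ratios. The median of all signals was 51.8 in GPI-immunized splenocytes and 48.65 in control splenocytes. Of the 18 probe sets for hybridization controls, bacterial and phage transcripts that are added in fixed amounts before hybridization, 17 were lower on the GPI-immunized array, with a geometric mean ratio of 0.879 (range 0.759 to 1.16). Scaling to these controls, a choice made after the data were examined, moved the median log2 ratio of all genes from 0.06 to 0.25, and division by the array median moved it to -0.04. The log2 ratio of Cybb was 1.00, just at the 2-fold threshold, with the hybridization controls and 0.72 with the array medians, and that of Ncf1 was 0.76 and 0.48. The 5 subunits kept ratios above 1 under all 5 scalings, with Cyba down to 1.05 after division by the median. Of all genes, 3139 of 6959 had a ratio above 1 after division by the median and 5485 of 6971 with the hybridization controls. Cat stayed below 1 in all 5 (0.783 to 0.950), whereas Gpx1 changed sides, at 0.880 with the array medians and 1.07 with the hybridization controls. Relative to the median of all genes in the deposited values, the log2 ratio was 0.76 for Cybb, 0.51 for Ncf1, 0.28 for Txn1 and -0.32 for Cat.

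**Figure D2:**
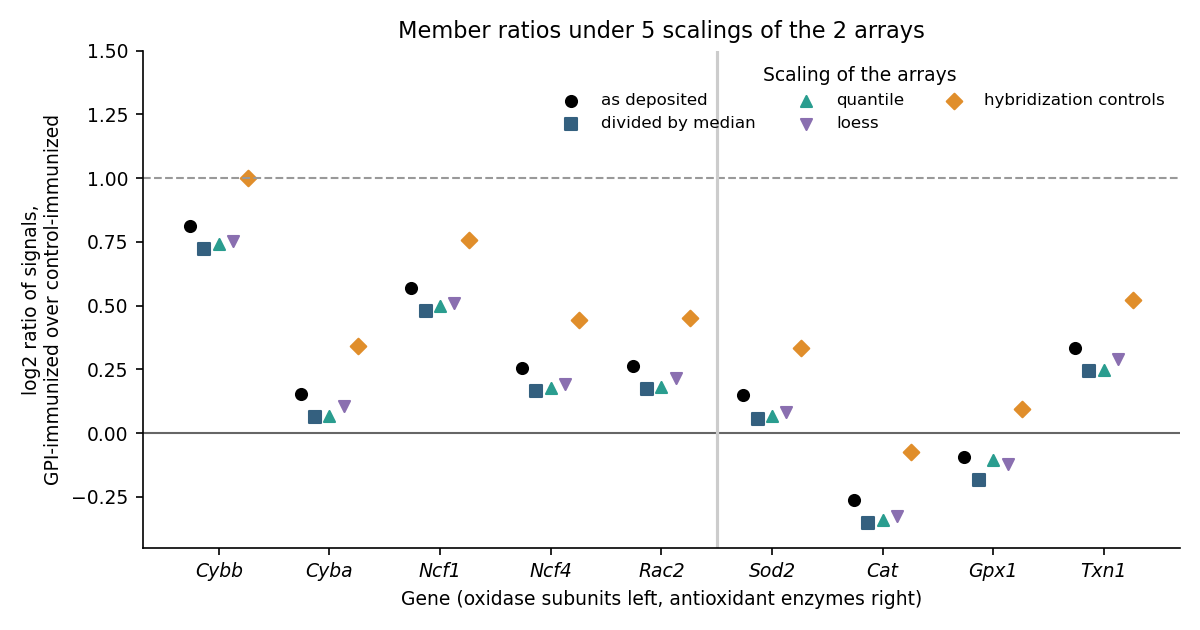
Log2 ratio (vertical axis, GPI-immunized over control signal) of the 9 genes under 5 scalings of the 2 arrays, 1 symbol per scaling, with the solid line at a ratio of 1 and the dashed line at 2. Cybb runs from 0.72 to 1.00 and stays the highest under each scaling, Cat stays below the solid line, and Gpx1 lies on both sides of it.

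Other genes around the oxidase did not move as one. Of 17 such genes (regulators, the integrin chain and the proton channel), 12 had a probe set with a single symbol and 11 enough signal. A 2-fold ratio was reached by 0 of the 11, where 2.23% of all genes were higher and 0.445% lower. At 1.5-fold 1 was higher and 1 was lower (median log2 ratio 0.24), beside 7.05% and 3.23% of all genes. The higher one was Vav3, an exchange factor for Rac GTPases, with 108.0 in GPI-immunized splenocytes and 69.0 in control splenocytes, a ratio of 1.57 that was 1.47 after division by the median. The dimmer Vav3 probe sets had ratios of 1.46 and 1.36, under the 1.5-fold threshold. The lower one was Hvcn1, the proton channel that balances the charge moved by the oxidase and that B cells also express, with 543.5 and 865.2 on these arrays, a ratio of 0.628. Hvcn1 remained below 1 under each scaling (0.590 to 0.715). Prkcb, another of the 11 genes, had a ratio of 0.771 with its brighter probe set. Its dimmer one had 186.7 in GPI-immunized and 349.9 in control splenocytes, a ratio of 0.534. The integrin chain Itgb2, which phagocytes use for adhesion, had a ratio of 1.32, and Rac1, the more widely expressed relative of Rac2, a ratio of 1.22. Cybc1, a chaperone that the membrane subunits need, had signals of 633.4 and 487.1 in the GPI-immunized and the control sample, a ratio of 1.30 that lies between those of Cybb and Cyba. Of 9 genes of related oxidases (NOX and DUOX families and their partners), 4 had such a probe set, and these (Nox4, Noxo1, Duoxa1 and Duoxa2) had no signal above 14.1 on either array, so no ratio is given.

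Among further antioxidant genes with enough signal, Msrb1 and Gss had the highest ratios. Of 11 other thioredoxin system genes 9 had enough signal, and 1 of them, Msrb1, was at least 2-fold higher (median log2 ratio 0.18), beside 2.23% of all genes. Msrb1, a selenoprotein that repairs oxidized methionine, had signals of 1350.1 in GPI-immunized splenocytes and 650.0 in control splenocytes, a ratio of 2.08, which was 1.95 after division by the median, 1.95 with quantile normalization and 1.99 with loess centring. The related enzymes Msra and Msrb2 had ratios of 1.32 and 1.26. Of 15 glutathione genes 7 passed the limit, and 2 of these were at least 1.5-fold higher and 0 lower (median log2 ratio 0.32), against 7.05% and 3.23% of all genes. The count was 1 after division by the median, where Glrx had 1.48, and 3 with the hybridization controls. Of all genes, 359 of 6959 were at least 1.5-fold higher after division by the median and 1040 of 6971 with the hybridization controls. Gss, which completes glutathione synthesis, had signals of 77.3 in GPI-immunized and 41.3 in control splenocytes, a ratio of 1.87 from a control signal under the 50th percentile. The brighter genes of the preceding step of this synthesis, Gclc and Gclm, had ratios of 0.902 and 0.941. Glutaredoxin (Glrx) had ratios of 1.58 and 1.75 with its probe sets, and glutathione reductase (Gsr) 1.40 and 1.88. Gpx4, which reduces lipid peroxides, had a ratio of 1.25.

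Of 9 further superoxide dismutase and peroxiredoxin genes 5 had enough signal (median log2 ratio 0.09). Of these 5, 0 were 1.5-fold higher or lower, beside 7.05% and 3.23% of all genes. The cytosolic dismutase Sod1 had signals of 2214.0 in GPI-immunized splenocytes and 2184.1 in control splenocytes, a ratio of 1.01, and the peroxiredoxin Prdx4 of the endoplasmic reticulum had a ratio of 1.38 with its brightest probe set but 0.953 and 1.14 with the others. Of 12 genes around the oxidative stress factor NRF2, 9 passed the limit, and 2 of these were at least 1.5-fold higher and 0 lower (median log2 ratio 0.22), where 7.05% and 3.23% of all genes were. These were heme oxygenase (Hmox1), with 671.5 in GPI-immunized splenocytes and 387.4 in control splenocytes, a ratio of 1.73, and the glutathione transferase Gstm1, with a ratio of 1.63 from its brightest probe set. Another Gstm1 probe set had 130 in GPI-immunized and 89.5 in control splenocytes, a ratio of 1.45, under the 1.5-fold threshold. The remaining Gstm1 probe sets were dim. The classical NRF2 target Nqo1 had a ratio of 0.917. Keap1, the inhibitor of NRF2, had a ratio of 0.797 with its brighter probe set. The dimmer Keap1 probe set had 51.0 in GPI-immunized splenocytes, just above the limit, and 34.0 in control splenocytes. Its ratio of 1.5 was in the opposite direction.

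Splenocytes are a mixture, and markers of several cell types differed between the arrays. In such bulk RNA, a change in the number of cells of a type and a change in RNA per cell cannot be told apart. Of 19 neutrophil markers 15 had a probe set, and all 15 had ratios above 1 (1.12 to 3.28, median log2 ratio 1.06), with 8 at least 2-fold higher. Of all genes, 57.5% had a ratio above 1 and 2.23% were at least 2-fold higher. The signals of the list summed to 53055 in GPI-immunized splenocytes and 35675 in control splenocytes. The granule protease Mmp8 (3.28) and the gelatinase Mmp9 (3.26) had the highest ratios of this list, each gene read from its brightest probe set. A second Mmp9 probe set had 556.3 in GPI-immunized and 103.1 in control splenocytes, a ratio of 5.40. Of 12 measured monocyte and macrophage markers 10 had enough signal, with ratios of 0.901 to 1.85 (median log2 ratio 0.17). The signals of the list summed to 9915 in GPI-immunized and 7930 in control splenocytes, of which Lyz2 alone made up 5287.4 and 3826.7. Fcgr1 (1.85) and Ccr2 (1.78) were highest, whereas Marco and Siglec1 had no signal above 14.1 on either array. The ratio of Cybb thus lay within the range of both lists, and that of Cyba (1.11) lay just below the lowest neutrophil marker (S100a9, 1.12). Those of Ncf4 (1.19) and Rac2 (1.20) lay between the next neutrophil markers, S100a8 (1.18) and Ngp (1.31). The median ratio of the neutrophil markers (2.08) was above the ratio of each oxidase subunit. The part of these cells in the oxidase ratios was not tested.

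Most lymphocyte markers had enough signal, and these had ratios below 1, as did 2950 of the 6961 genes. For B cells, 8 of 9 measured markers had enough signal, with ratios of 0.491 to 0.920 and summed signals of 12952 in GPI-immunized and 17039 in control splenocytes. Fcer2a (0.491) was lowest, and Pax5 was dim, at 15.0 in GPI-immunized and 6.4 in control splenocytes. For T cells it was 9 of 10, with ratios of 0.509 to 0.873 and summed signals of 1507 and 2074 on these arrays. With the hybridization controls as scale, 2 of the 8 B cell markers and 0 of the 9 T cell markers had ratios above 1. Of all genes, 5485 of 6971 did so on that scale. The 8 measured erythroid markers had summed signals of 17563 in GPI-immunized splenocytes and 20465 in control splenocytes. Their ratios ran from 0.641 (Epb42, 0.984 with its dimmer probe set) to 1.35, with a median log2 ratio of -0.21. The ratios of Cat (0.834) and Gpx1 (0.937) lay within this range, as did those of Cyba, Ncf4, Rac2, Sod2 and Txn1. That of Cat lay within the B cell and T cell ranges as well. No marker of these 5 lists was at 0 on either array, and the part of these cells in the ratios of Hvcn1, Cat and Gpx1 was not tested. The summed signals of the shorter lists were 255 and 283 for NK cells, 633 and 780 for dendritic cells and 547 and 412 for megakaryocytes in GPI-immunized and control splenocytes.

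**Figure D3:**
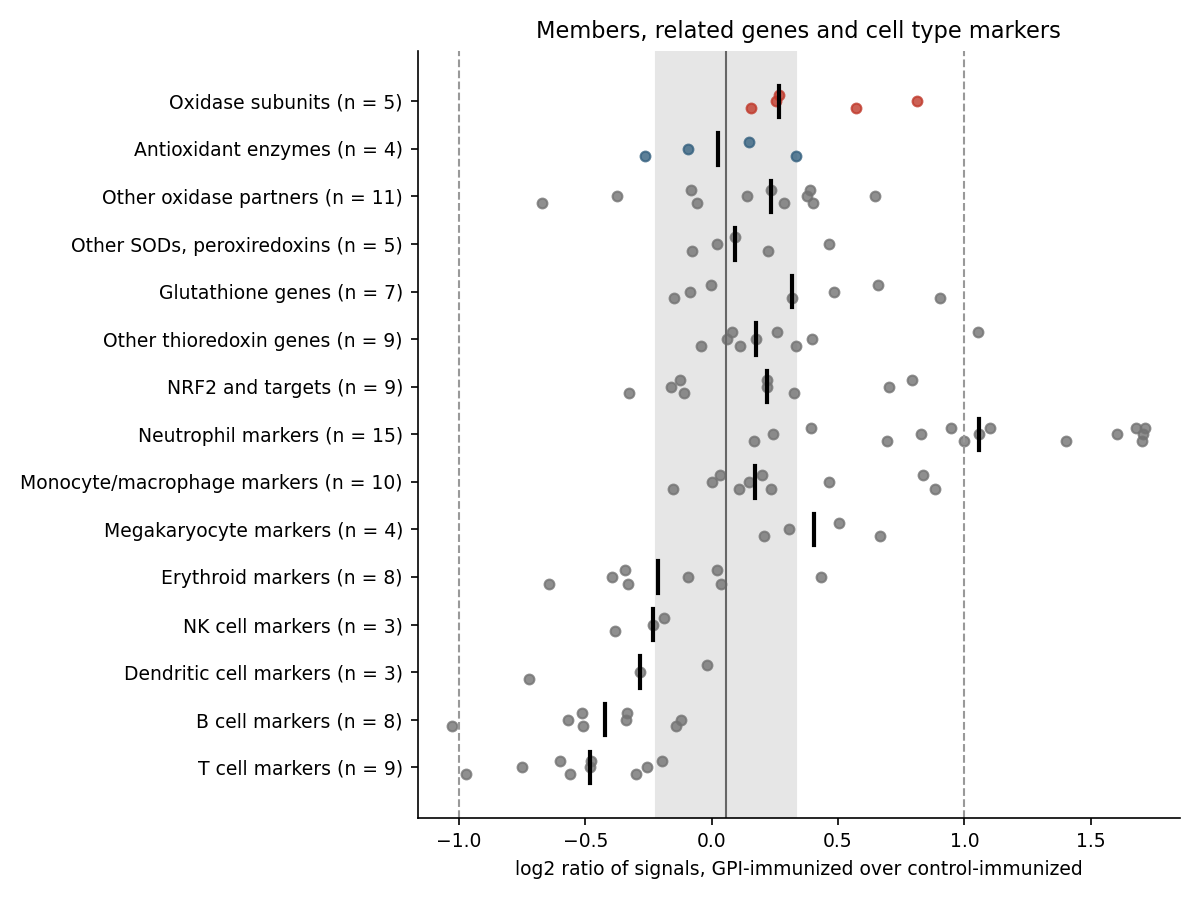
Log2 ratio (horizontal axis, GPI-immunized over control signal) in each list, genes with enough signal, 1 point per gene, with the list's median as a black bar, the median of all genes as a grey line with the SD between probe sets as a grey band, and 2-fold ratios as dashed lines. The oxidase subunits (top) lie between 0.15 and 0.81, the antioxidant genes between -0.26 and 0.33, the neutrophil markers reach 1.72, and all B and T cell markers lie below 0.

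The sequence before the transcription start is shown for the genes with the highest ratios in each set and for Cat, the lowest, because the members differ there in base composition. RefSeq windows of 250 bases before and 50 after the start (GRCm38.p6) were available for 7 of the 9 genes, Ncf4 and Rac2 being the exceptions. The last 100 bases before the start are given 5′ to 3′ on the strand of the gene, with CCAAT boxes (CCAAT) and GC boxes (GGGCGG) in capitals on either strand. The motifs shown do not overlap each other.
Cybb (chrX:9469325-9469424, minus strand): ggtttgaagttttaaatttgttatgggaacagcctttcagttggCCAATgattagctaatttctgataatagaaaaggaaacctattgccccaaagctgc
Ncf1 (chr5:134229626-134229725, minus strand): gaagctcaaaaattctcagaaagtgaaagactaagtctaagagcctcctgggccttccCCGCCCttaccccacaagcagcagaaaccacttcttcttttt
Txn1 (chr4:57956412-57956511, minus strand): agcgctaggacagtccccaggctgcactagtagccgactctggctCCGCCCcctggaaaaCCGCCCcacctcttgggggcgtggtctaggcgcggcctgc
Cat (chr2:103485154-103485253, minus strand): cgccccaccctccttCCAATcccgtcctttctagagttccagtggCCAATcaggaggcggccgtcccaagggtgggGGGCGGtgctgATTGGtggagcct

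The 250 bases before the start held 34.0% G and C in Cybb, a content that 4.25% of all 32851 windows do not exceed. They held 54.4% in Ncf1, 62.0% in Cat and 64.0% in Txn1, against a median of 52.4% over all windows. Cybb was the only one of the 7 genes with no GC box in its window, a motif that 35.7% of all windows hold. It had a CCAAT box whose first base lies 56 bases before the start, as 37.4% of all windows have such a box. A purine-rich motif of the kind bound by the myeloid factor PU.1 (GAGGAAG) and the core of the antioxidant response element (TGACNNNGC) were looked for on both strands as well. Neither was found in the 7 windows, while 13.6% and 12.4% of all windows hold them, which says only that these letters are not in these windows.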

How the data were processed

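Splenocyte RNA of each group was hybridized to 1 GeneChip. The authors deposited 1 intensity per probe set and array on a linear scale, made with gene expression software. How probes were summarized, scaled and called detected is not stated by the labels or methods. The sample labels describe labelled cDNA from a whole-transcript kit and the methods biotinylated cRNA, and whether the spleens of a group were pooled is not stated.

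Both columns were assigned to their groups from the sample titles. Of 22626 probe sets besides 64 control probe sets, 20380 had 1 gene symbol, 691 had several and 1555 had none. Each gene was read from its brightest probe set by mean log2 signal, and the ratio GPI-immunized over control was taken without scaling, with the 3 signals of 0 set to 0.1. Genes were called at a ratio of at least 2 or at most 0.5, where 1 signal reached 50.2. No test was possible, and the number of arrays limits the precision. The code for the calls was run on simulated data with ratios set in advance. Their recovery was fixed by that setup, so it checks the arithmetic only and not the reliability of the calls.

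The members, lists and thresholds were chosen with earlier results of these data known. Named genes were all members, up to 3 genes per related oxidase or antioxidant list furthest from a ratio of 1, every gene of those lists past 2-fold, Rac1, Sod1 and Gpx4, and the furthest markers. Cybc1, Prkcb, Nqo1, Gclc, Gclm, S100a8, S100a9, Ngp, Lyz2 and Pax5 and the CCAAT and GC boxes were added after the data were examined. The alternatives were 4 scalings, 3 floors, 2 other choices of probe sets, 2 other signal limits and a 1.5-fold threshold. The software was Python 3.11.15 with the packages numpy 2.4.6 and pandas 2.3.3, statsmodels 0.14.6 and matplotlib 3.10.9.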

Additional observations from a re-analysis of the deposited data

How the results depend on the processing

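The median log2 ratio of the oxidase subunits (0.26) ranged from 0.17 to 0.45 over the alternatives, and that of the antioxidant genes (0.03) from -0.07 to 0.21. The antioxidant median was below 0 after division by the array median, quantile normalization, loess centring and averaging of probe sets. The count of subunits at least 2-fold higher was 1 (Cybb) instead of 0 when the arrays were scaled to the hybridization controls, a choice added after the data were examined, and 1 with a 1.5-fold threshold. Averaging all probe sets of a gene turned the log2 ratio of Txn1 from 0.33 to -0.053, since its dim probe set then counted equally. The cause of the scaling difference was not tested.

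Over all genes, 155 were at least 2-fold higher and 31 lower in the deposited values. The counts were 253 and 10 with the hybridization controls, 111 and 47 after division by the median and likewise with quantile normalization, 1266 and 1105 without a signal limit, 70 and 5 where the limit was the 75th percentile, and for a 1.5-fold threshold 491 and 225. A floor at the 50th percentile gave 11 lower genes and averaging of probe sets 72. No paired analysis was possible because each group has 1 array.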
